A study of Tribolium castaneum with 9 samples.

Results

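The 10 genes described here are the juvenile hormone and ecdysone pathway genes of a table of 5467 genes deposited for the red flour beetle, Tribolium castaneum, a pest of stored grain. A gene was taken where the first title of its deposited description named juvenile hormone, ecdysone, ecdysteroid, farnesoic acid or methoprene-tolerant and did not name takeout. The limit of 10 genes removed none, since 10 genes matched. They are 5 juvenile hormone epoxide hydrolases (Tcjheh-r1 to Tcjheh-r5, here JHEH-r1 to JHEH-r5), a juvenile hormone acid methyltransferase (Tcjhamt, here JHAMT), the juvenile hormone receptor Met (Tcmet), the ecdysone receptor EcR (Ecr), the ecdysone-induced protein 75B (LOC660005, here E75) and an ecdysteroid-regulated 16 kDa protein (LOC664531). Every gene in the table, these 10 included, had been selected on the authors' log2 fold changes between these same libraries, with a limit of 1 in size in at least 1 comparison. The fold changes of the 10 genes are therefore a description, and no test on them is given as support. In the authors' deposited table the largest fold change of each of the 10 was at least 1.15 in size, the value of Met, which lay nearest to the limit.

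RNA was sequenced from adult beetles of a susceptible phenotype in 3 groups of 3 libraries. The control group was the whole body of untreated beetles. The other groups were Malpighian tubules (the excretory organ) and fat body (the organ of storage and intermediary metabolism) of beetles treated with carbonyl sulfide (COS), a fumigant gas. The labels used here name no strain, sex, dose or exposure time and do not explain the 70 in the fat body titles. Each tissue differed from the control in both treatment and tissue, and these cannot be told apart. Nothing in the labels ties the 3 libraries of a group to separate animals, so p-values cover only the spread between libraries. In bulk RNA, fewer cells of a type and less RNA per cell cannot be told apart either.

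Juvenile hormone is a sesquiterpenoid made in the corpora allata, small glands behind the brain, from farnesol intermediates. JHAMT methylates the acid precursor late in the synthesis, and epoxide hydrolases and an esterase degrade the hormone. Met is its intracellular receptor, a transcription factor that binds DNA with a partner protein. Ecdysone and its active form, 20-hydroxyecdysone, are steroids made from dietary sterols by a chain of cytochrome P450 enzymes. They act through EcR and its partner ultraspiracle, and E75 is among the first genes that the receptor switches on at a moult. In adult insects both hormones act on reproduction, including yolk protein synthesis in the fat body.

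Library totals ran from 13435869 to 14803877 reads in controls, from 15175796 to 19866421 in tubules and from 16125682 to 18174747 in fat body. Summed markers of each labelled tissue were highest there: the 10 fat body markers summed to 16871 to 25832 CPM (counts scaled to library size) in fat body, 4349 to 6164 in controls and 1449 to 1993 in tubules. Of the 10, 7 were called higher and 3 lower in fat body over control, and 6 higher and 0 lower in fat body over tubules. The vitellogenin LOC660042 held 39.9% of their fat body sum. The 30 Malpighian tubule markers summed to 6264 to 8285 CPM in tubules, 2120 to 2311 in controls and 2350 to 2648 in fat body. Of the 30, 16 were called higher and 2 lower in tubules over control, and 8 higher and 21 lower in fat body over tubules. Genes matched by words as markers of other tissues were detected too. Whether their reads in tubules and fat body came from other tissue or from the labelled organ was not tested. The 52 muscle markers summed to 48272 to 59153 CPM in fat body, 22548 to 23257 in controls and 4719 to 5459 in tubules, and the 49 cuticle markers to 1263 to 1338, 679 to 876 and 462 to 690 CPM. The 39 gut markers summed to 6027 to 9641 CPM in tubules, 3276 to 4439 in controls and 2047 to 2351 in fat body, where 1 was at 0. The words for gut also matched antichymotrypsin-2 genes, which are named as protease inhibitors and not as digestive enzymes. The aminopeptidase N-like gene LOC661831 held 57.9% of the gut sum in tubules, and in tubules over control 10 gut markers were called higher and 11 lower (median log2 fold change 0.06). The 52 nervous system markers summed to 6501 to 6857 CPM in tubules, 1869 to 2103 in controls and 2149 to 2867 in fat body, but the gene LOC660155 (synaptic vesicle glycoprotein 2B) held 56.7% of the tubule sum, and 15 markers were called higher and 27 lower (median -0.93). Both ovary and egg markers in the table summed to 287 to 1235 CPM in tubules, 47.5 to 145 in controls and 8.44 to 73.4 in fat body. The 33 testis and sperm markers stood at 5282 CPM in control library 3 and at 2189 to 2199.9 in the other controls, at 1198 to 2095 in tubules, and at 1996 in fat body library 1 against 587 and 1013 in the others. Control library 3 and fat body library 1 thus had the highest testis sums of their groups. The median deviation of these markers from the group mean was 0.86 and 1.16 log2 units in those libraries. It was -1.14 in fat body library 2 and -0.84 in tubule library 3, so those libraries differed from their groups as well.

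All 10 genes passed the filter on low counts. A gene was called where its edgeR p, adjusted by the Benjamini-Hochberg method across all 5358 tested genes, was under 0.05. In tubules over control 6 of the 10 were called, 3 higher and 3 lower, where 62.8% of all tested genes were called (32.6% higher, 30.2% lower). In fat body over control 8 were called, 6 higher and 2 lower, against 69.1% of all genes (32.2% higher, 36.9% lower). In fat body over tubules 7 were called, 5 higher and 2 lower, against 79.8% of all genes (38.8% higher, 41.0% lower). The 3 libraries of each group did not overlap for 5, 9 and 6 of the 10 genes, against 72.4%, 78.0% and 80.3% of all genes. Some of these shares lie near the background of a table of selected genes and some do not. With 10 genes, nothing is read from them. Scaling moves the balance: 51.9% of the calls in tubules over control were higher, and 34.2% with the authors' size factors. In fat body over control 46.6% were higher, and 35.99% with library totals alone.

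**Figure D1:**
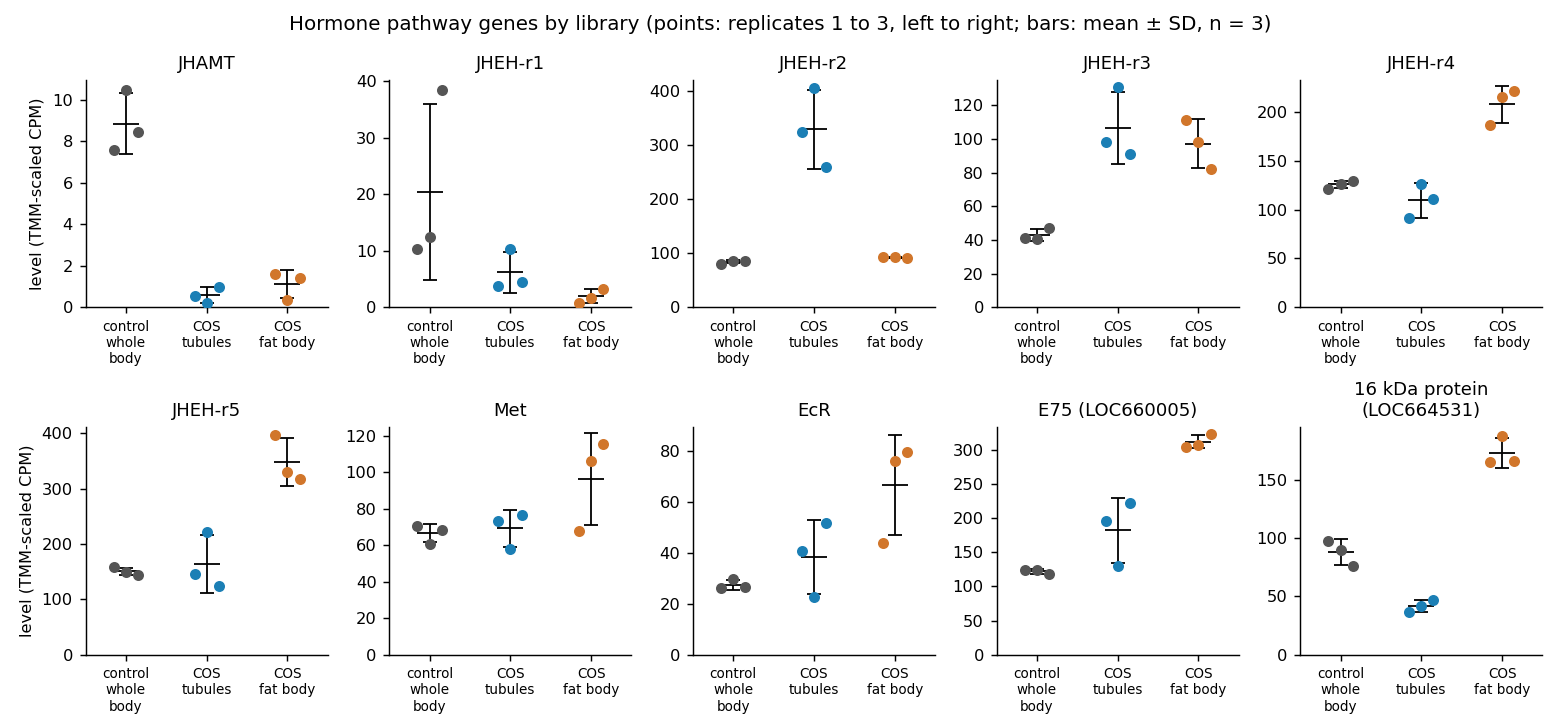
Level of each of the 10 genes in each library, in TMM-scaled CPM, by group (grey, control whole body; blue, COS tubules; orange, COS fat body), with the mean ± SD of 3 libraries. JHAMT stood at 7.58 to 10.4 CPM in controls and at or under 1.60 CPM in every tissue library, while JHEH-r2 was highest in tubules and JHEH-r5 highest in fat body.

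JHAMT, the methyltransferase of juvenile hormone synthesis, had the fewest reads of the 10 genes and was far lower in both tissues than in the whole body. It stood at 7.58, 10.4 and 8.46 CPM in control libraries 1 to 3, from 117, 165 and 135 reads. In tubules it stood at 0.569, 0.216 and 1.003 CPM, from 11, 3 and 15 reads, and in fat body at 1.60, 0.341 and 1.42 CPM, from 24, 6 and 21 reads. All 6 tissue libraries lay below the 3 controls, and the tubule and fat body libraries overlapped each other. The log2 fold change was -3.86 ± 0.60 (SE) in tubules over control and -2.99 ± 0.57 in fat body over control. Between the tissues it was 0.88 ± 0.62 and did not pass. Without fat body library 2, which held 6 reads, that difference was 1.33 with an adjusted p of 0.0382 (edgeR). It also passed with the authors' size factors, where JHAMT was among 8 of the 10 genes called higher. Over the 16 alternatives it ran from 0.51 to 1.52.

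The 5 JHEH genes, whose enzymes open the epoxide ring of juvenile hormone, lie next to each other on chromosome 1 of the RefSeq assembly icTriCast1.1, in the order JHEH-r4, JHEH-r3, JHEH-r2, JHEH-r1 and JHEH-r5. They share the same annotated protein domains and similar protein lengths, but their sequences were not compared. How any reads shared between them were counted is not given in the sources used here, so the split of reads among them is uncertain. The 5 did not move as a block. JHEH-r2 was highest in tubules, JHEH-r4 and JHEH-r5 in fat body and JHEH-r1 in the whole body, while JHEH-r3 overlapped between the tissues and was lower in the whole body. JHEH-r2 led the array in tubules, and JHEH-r5 led it in fat body and in the whole body.

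JHEH-r2 was highest in tubules. It stood at 80.9, 86.5 and 85.1 CPM in controls, 325, 405 and 259 CPM in tubules and 92.8, 92.6 and 91.6 CPM in fat body. The tubule libraries lay above all others, and the log2 fold change was 1.97 ± 0.18 in tubules over control and -1.84 ± 0.17 in fat body over tubules. Fat body libraries lay just above the controls without overlap, but the fold change of 0.13 ± 0.17 missed the threshold and turned to -0.12 with library totals alone.

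JHEH-r5, like JHEH-r4, was highest in fat body. It stood at 158, 149 and 144 CPM in controls, 146, 222 and 124 CPM in tubules and 397, 329.6 and 318 CPM in fat body. Controls and tubules overlapped (log2 fold change 0.12 ± 0.22, not passed), and its sign turned with the authors' size factors (-0.36) and without tubule library 2 (-0.16). The fat body libraries lay above all others, with 1.21 ± 0.22 over control and 1.09 ± 0.22 over tubules.

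JHEH-r3 was higher in both tissues than in the whole body, and JHEH-r4 was higher in fat body. JHEH-r3 stood at 41.1, 40.6 and 47.0 CPM in controls, 98.1, 131 and 90.8 CPM in tubules and 111, 98.2 and 82.5 CPM in fat body. All 6 tissue libraries lay above the controls (log2 fold changes 1.31 ± 0.19 and 1.18 ± 0.19). The tissues overlapped, and their difference of -0.13 ± 0.19 changed sign with the scaling, reaching 0.52 (adjusted p = 0.0317, edgeR) with the authors' size factors. JHEH-r4 stood at 121, 127 and 129 CPM in controls, 91.0, 126 and 111 CPM in tubules and 186, 215 and 221 CPM in fat body. Only the fat body libraries lay apart, with 0.72 ± 0.16 over control and 0.92 ± 0.16 over tubules, while tubules over control, at -0.20 ± 0.16, missed the threshold. It came to -0.69 under the size factors of the authors and to -0.44 with library totals alone, and both of these passed.

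JHEH-r1 was the rarest of the 5 and the most variable. It stood at 10.3, 12.5 and 38.3 CPM in controls, 3.77, 10.4 and 4.55 CPM in tubules and 0.866, 1.65 and 3.31 CPM in fat body. Control library 3 was 3.72 times the lowest control, and it was also the library in which the 33 testis and sperm markers summed highest (5282 CPM). The part of testis RNA in the gene's level was not tested. Fat body lay below the controls without overlap, with a log2 fold change of -3.39 ± 0.70, and -2.49 without control library 3 (adjusted p = 0.00879, edgeR). Tubules overlapped the controls at -1.71 ± 0.65, and that call was lost without control library 3 (-0.86, adjusted p = 0.23, edgeR) and without tubule library 1 or 3 (-1.45 and -1.53). Fat body over tubules, at -1.68 ± 0.68, lost its call in 6 of the 16 alternatives, among them -1.09 without tubule library 2 and -1.33 without fat body library 1.

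**Figure D2:**
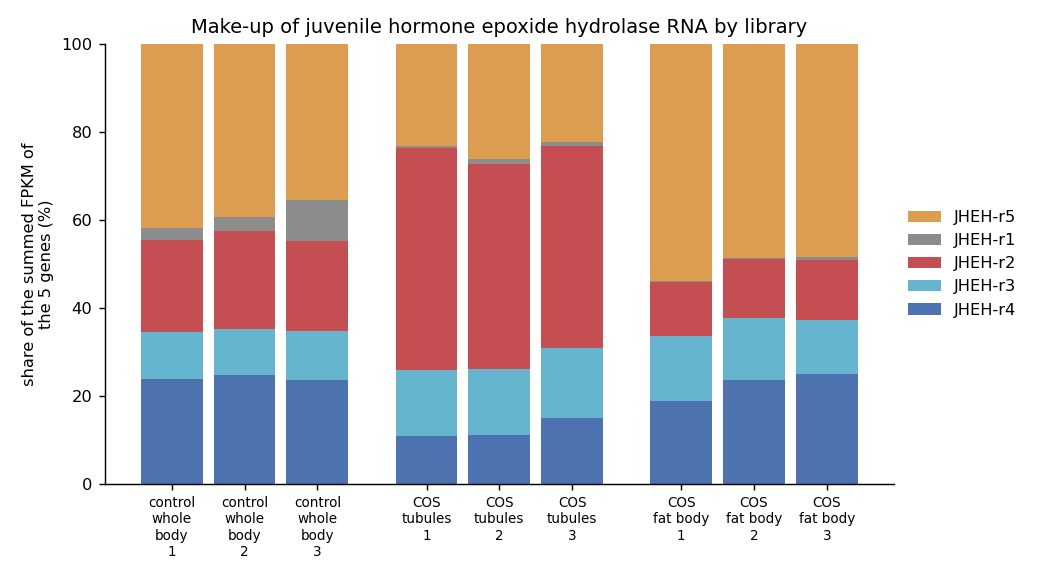
Share of each epoxide hydrolase gene in the summed deposited FPKM of the 5 genes, in percent, for each library. JHEH-r2 held 45.9% to 50.4% in tubules and JHEH-r5 held 48.6% to 54.0% in fat body, and each stack sums to 100%.

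The make-up of the array within a library does not depend on how libraries are scaled to each other. Levels were compared per length with the authors' FPKM (fragments scaled to gene length and to library size). The deposited lengths, introns included, are 1691 to 1734 bases for 4 of the genes and 2280 bases for JHEH-r4, while the proteins all have 455 to 461 residues, so the share and rank of JHEH-r4 depend on the length used. In controls JHEH-r5 held 38.8% ± 3.21 (SD, n = 3) of the summed FPKM, followed by JHEH-r4 at 24.02% ± 0.63, JHEH-r2 at 21.2% ± 0.95, JHEH-r3 at 10.8% ± 0.43 and JHEH-r1 at 5.14% ± 3.70. This order was the same in all 3 controls.

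In tubules JHEH-r2 led with 47.6% ± 2.42, ahead of JHEH-r5 at 23.9% ± 1.98, JHEH-r3 at 15.4% ± 0.56, JHEH-r4 at 12.2% ± 2.33 and JHEH-r1 at 0.881% ± 0.316, again in the same order in all 3 libraries. In shares of summed CPM, with no length, JHEH-r4 held 15.6% ± 2.84 and JHEH-r3 14.9% ± 0.43 in tubules, so these 2 did not differ beyond their spread there. JHEH-r2 still led tubules by that measure (46.1% ± 2.58) and JHEH-r5 fat body (46.5% ± 3.38). In fat body JHEH-r5 held 50.4% ± 3.13 and JHEH-r4 22.4% ± 3.26. JHEH-r3 at 13.7% ± 1.29 and JHEH-r2 at 13.1% ± 0.70 did not differ beyond their spread and changed places in library 3, and JHEH-r1 held 0.288% ± 0.197. The ratio of JHEH-r2 to JHEH-r5 was 0.502, 0.567 and 0.576 in controls, 2.18, 1.78 and 2.05 in tubules and 0.228, 0.275 and 0.282 in fat body. The 3 groups did not overlap in this ratio, and their order was tubules, whole body, fat body.

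The summed level of the array was higher in both tissues than in the whole body with the TMM scaling used here. It came to 424 ± 17.8 CPM in controls (SD, n = 3), 716 ± 159 in tubules and 747 ± 37.2 in fat body, so the tissues did not differ beyond their spread. Tubule library 2 had the highest sum, 894 CPM, and it was the highest of the tubule libraries for each of the 5 genes. The summed gut list, antichymotrypsin-2 genes included, was also highest in that library (6027, 9641 and 6060 CPM in tubule libraries 1 to 3). The summed Malpighian tubule markers were highest there too (6264, 8285 and 7139 CPM). The part of either list in the epoxide hydrolase levels was not tested.

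**Figure D3:**
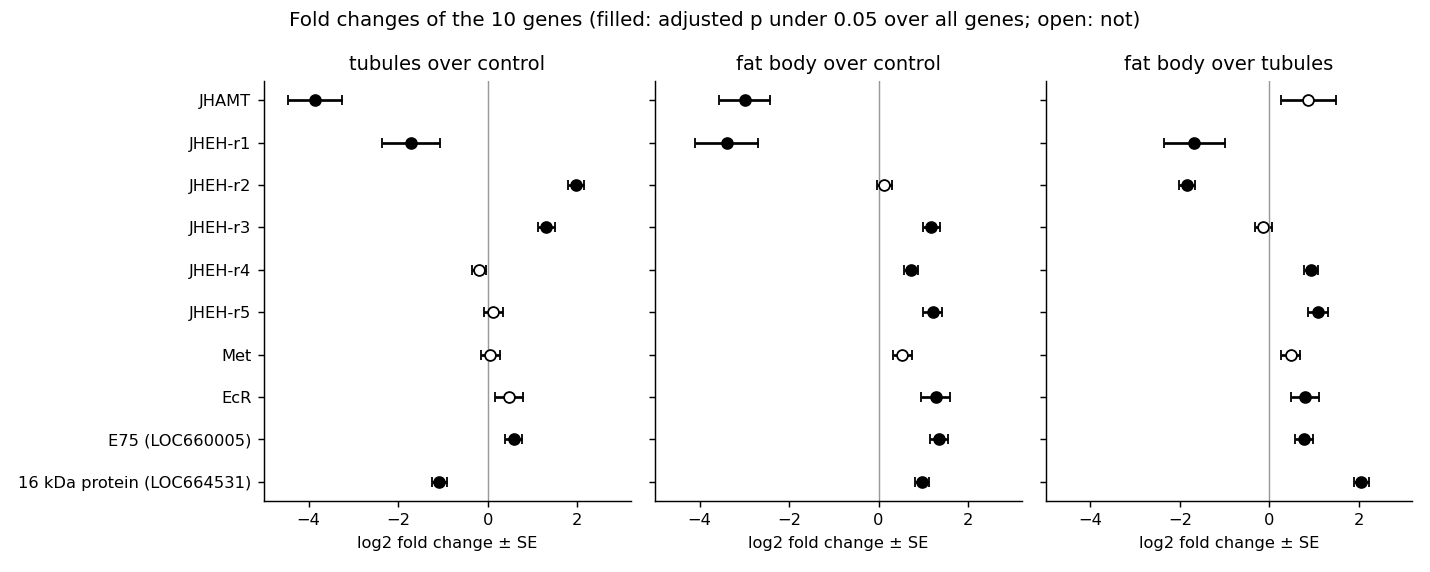
Log2 fold change of each gene in the 3 comparisons, with bars of ± 1 SE. Filled points passed an adjusted p under 0.05 over all 5358 genes tested with edgeR and open points did not, and Met is open in all 3 panels.

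The receptors Met and EcR and the early gene E75 were highest in fat body, by small margins for Met. Met stood at 70.3, 60.8 and 68.2 CPM in controls, 73.1, 57.9 and 76.4 CPM in tubules and 67.6, 106 and 115 CPM in fat body. The groups overlapped in every comparison, and no difference passed: the log2 fold change was 0.06 ± 0.22 in tubules over control, 0.53 ± 0.22 in fat body over control and 0.48 ± 0.22 in fat body over tubules. The fat body results depended on fat body library 1, and fat body over tubules also on the scaling. Without fat body library 1, fat body over control was 0.74 (adjusted p = 0.00637, edgeR) and fat body over tubules 0.68 (adjusted p = 0.00651, edgeR). With the authors' size factors, Met was among the 8 genes described here that were called higher in fat body over tubules. Over the 16 alternatives Met ran from 0.28 to 0.76 in fat body over control. In fat body over tubules it ran from 0.33 to 1.15.

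EcR stood at 26.1, 29.7 and 26.5 CPM in controls, 40.7, 22.6 and 51.5 CPM in tubules and 43.8, 76.1 and 79.4 CPM in fat body. Every fat body library lay above the controls (log2 fold change 1.27 ± 0.32), while the tubule libraries lay on both sides of them. Tubules over control, at 0.48 ± 0.32, did not pass, and it came to 0.74 (adjusted p = 0.0415, edgeR) without tubule library 2 and to -0.02 with the authors' size factors. Fat body over tubules passed at 0.80 ± 0.32, although the groups overlapped, and that call was lost in 7 of the 9 fits that left out 1 library (0.53 to 0.84 in those fits).

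E75, a nuclear receptor that binds haem in Drosophila, had more reads than either receptor. It stood at 124, 125 and 118 CPM in controls, 196, 129.6 and 222 CPM in tubules and 305, 308 and 324 CPM in fat body. The 3 groups did not overlap, in the order whole body, tubules, fat body. Fat body over control was 1.35 ± 0.19 and fat body over tubules 0.78 ± 0.19. Tubules over control, at 0.58 ± 0.19, was lost in 8 of the 16 alternatives, where it reached 0.35 with library totals alone and 0.08 with the authors' size factors.

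**Figure D4:**
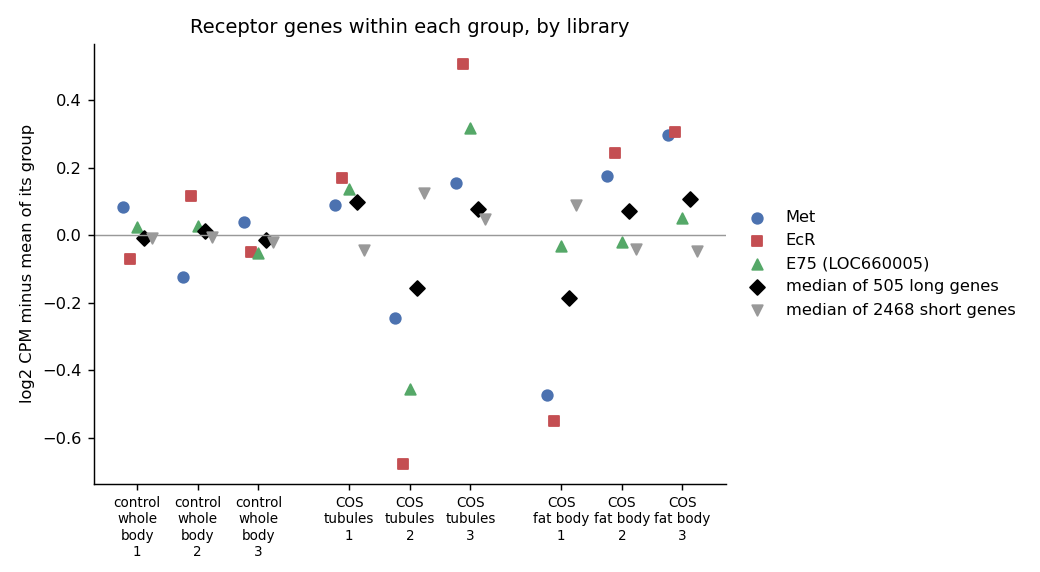
Deviation of each library from the mean of its own group, in log2 CPM, for Met, EcR and E75, with the median of 505 genes of at least 30000 bases and of 2468 genes under 3000 bases. EcR stood at -0.68 in tubule library 2 and at -0.55 in fat body library 1, the libraries in which the long genes also stood lowest.

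Within groups the same libraries were low for these genes. In tubule library 2, EcR stood 0.68 log2 units below the mean of its group, E75 0.46 and Met 0.25 below. In fat body library 1, EcR stood 0.55 and Met 0.47 below, while E75 was 0.03 below. Over the 9 libraries, deviations from the group mean correlated at r = 0.84 between Met and EcR, 0.82 between EcR and E75 and 0.50 between Met and E75, as a description of libraries that share their depth and quality across genes.

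The 3 genes are long in the deposited annotation, with 45875 bases for Met, 91141 for EcR and 33285 for E75. The 505 genes of at least 30000 bases had median deviations of -0.16 in tubule library 2 and -0.19 in fat body library 1, and of -0.01 to 0.11 in the other 7 libraries. The 2468 genes under 3000 bases had medians of 0.13 and 0.09 in those 2 libraries. Ovary and egg markers summed to 874, 287 and 1235 CPM in tubule libraries 1 to 3, the same order of libraries as for Met, EcR and E75. The part of gene length and of ovary RNA in these receptor levels was not tested. The summed muscle markers, like these genes, were highest in fat body (48272 to 59153 CPM), and their part was not tested either. Of the 52 muscle markers, 26 were called higher and 14 lower in fat body over control, and 29 and 14 in fat body over tubules.

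The 16 kDa protein LOC664531 was high in fat body and low in tubules. Its deposited annotation places it in the Niemann-Pick C2 (NPC2) family of small secreted lipid-binding proteins, and its name comes from an ecdysteroid-responsive protein of the tobacco hornworm. It stood at 98.1, 89.7 and 76.3 CPM in controls, 36.5, 41.7 and 46.7 CPM in tubules and 165, 188 and 166 CPM in fat body. The 3 groups did not overlap in any comparison. The log2 fold change was -1.08 ± 0.16 in tubules over control, 0.98 ± 0.16 in fat body over control and 2.06 ± 0.16 in fat body over tubules. All 3 calls held in the 16 alternatives tried, which reuse the libraries that the gene was selected on.

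Of the 30 results for the 10 genes, 21 were called, and 17 of these were called in every one of the 16 alternatives. The 4 that were not are JHEH-r1 and E75 in tubules over control, and JHEH-r1 and EcR in fat body over tubules. The alternatives reuse the libraries on which the genes were selected, so a kept call is no independent support. The authors' deposited table gives, for tubules over control, a log2 fold change of -4.39 for JHAMT, 1.48 for JHEH-r2 and -0.69 for JHEH-r4. For fat body over control the authors' deposited table gives -2.84, 0.30 and 0.89 for the same genes. Relative to the scaling used here, the authors' size factors shift the median gene by -0.49 in tubules over control, by 0.16 in fat body over control and by 0.65 in fat body over tubules.

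Other genes of the hormone pathways were taken by words in their descriptions. The 6 genes of ecdysteroid synthesis and of its P450 inactivation were mostly higher in tubules: 5 were higher and none lower than in the whole body, with a median log2 fold change of 1.56 (-0.12 over all genes tested, of which 32.6% were higher and 30.2% lower). In fat body over control 1 was higher and 1 lower (median -0.09, against -0.22, with 32.2% and 36.9% of all genes), and in fat body over tubules 1 was higher and 5 lower (median -1.73, against -0.24, with 38.8% and 41.0% of all genes). In Drosophila CYP307A1 (spook), CYP306A1 (phantom) and CYP302A1 (disembodied) act in turn on the way to ecdysone, CYP314A1 (shade) makes the active 20-hydroxyecdysone, and CYP18A1 inactivates it. Adrenodoxin passes electrons to mitochondrial P450s.

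**Figure D5:**
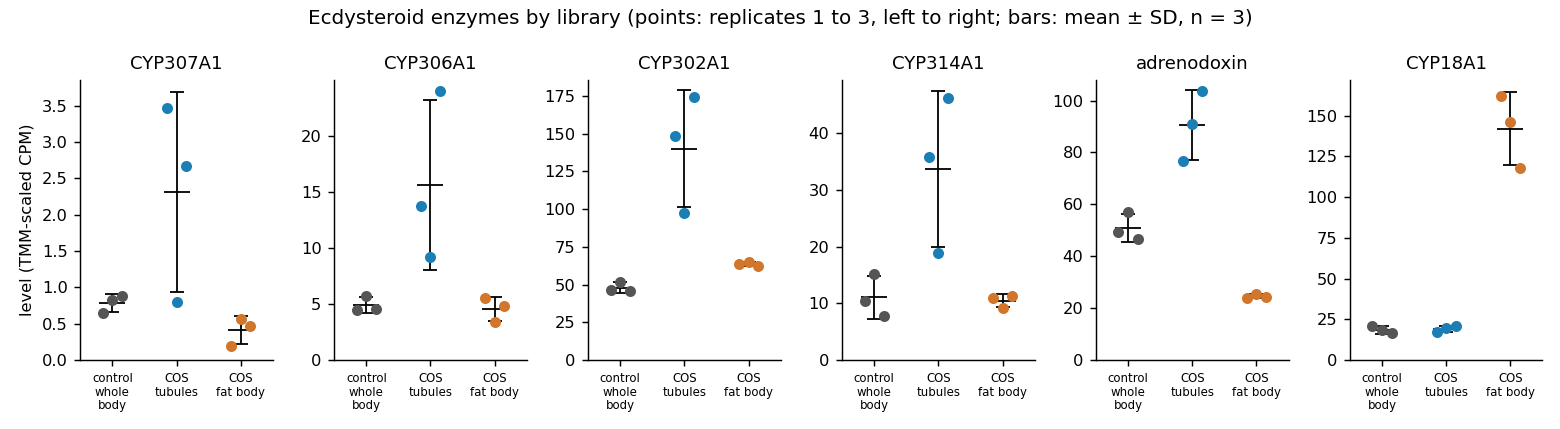
Level of the 6 ecdysteroid enzyme genes in each library, in TMM-scaled CPM, by group, with the mean ± SD of 3 libraries. CYP302A1 stood at 97.7 to 174 CPM in tubules and at 45.5 to 52.0 in controls, while CYP18A1 stood at 118 to 162 CPM in fat body and at 16.4 to 21.2 in controls and 17.5 to 21.1 in tubules.

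CYP302A1 (LOC663098), the most abundant of the 5 P450s over the 9 libraries, stood at 46.5, 52.0 and 45.5 CPM in controls, 148, 97.7 and 174 CPM in tubules and 63.9, 65.1 and 62.4 CPM in fat body, with 1.55 ± 0.21 in tubules over control. CYP314A1 (Cyp314a1) stood at 10.4, 15.2 and 7.71 CPM, 35.9, 18.9 and 46.1 CPM and 10.995, 9.20 and 11.3 CPM in the same order (1.60 ± 0.35). CYP306A1 (LOC656884) went from 4.89 ± 0.695 CPM in controls to 15.6 ± 7.57 in tubules (1.67 ± 0.36) and 4.58 ± 1.08 in fat body. In each of these 3 genes tubule library 2 was the lowest and library 3 the highest of the tubules, as were the summed ovary and egg markers (874, 287 and 1235 CPM). Insect ovaries are a known site of ecdysteroid synthesis, and the part of ovary RNA in the tubule values was not tested.

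CYP307A1 (LOC663127) was rare, at 0.783 ± 0.12 CPM in controls, 2.31 ± 1.37 in tubules and 0.413 ± 0.191 in fat body. Its call in tubules over control (1.57 ± 0.53) was lost without tubule library 1 (1.15, adjusted p = 0.114, edgeR), without tubule library 3 and without any 1 control. With the authors' size factors 3 of the 6 genes were called higher in tubules, since CYP307A1 (1.07) and adrenodoxin (LOC656378, 0.34) were then lost. Adrenodoxin was the gene of the 6 that was lower in fat body than in the whole body, at 24.6 ± 0.714 against 50.9 ± 5.47 CPM (-1.05 ± 0.16), and it stood at 90.6 ± 13.4 CPM in tubules.

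CYP18A1 (Cyp18a1) was the exception among the 6. It stood at 21.2, 18.5 and 16.4 CPM in controls, 17.5, 19.5 and 21.1 CPM in tubules and 162, 146 and 118 CPM in fat body. The fat body libraries lay far above all others, at 2.93 ± 0.19 over control and 2.88 ± 0.19 over tubules, and controls and tubules overlapped (0.05 ± 0.18, not passed).

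The 15 genes of the mevalonate and farnesol steps of juvenile hormone synthesis split in both directions. In tubules over control 5 were higher and 8 lower (median -0.87), in fat body over control 6 and 4 (median 0.14), and in fat body over tubules 8 and 5 (median 0.82), beside medians over all genes of -0.12, -0.22 and -0.24. Of all genes 32.6% were higher and 30.2% lower in the first comparison, 32.2% and 36.9% in the second and 38.8% and 41.0% in the third. With the authors' size factors 3 of the 15 were higher and 9 lower in tubules, and with library totals alone the median in fat body over control was -0.12. HMG-CoA synthase and reductase, early enzymes of the mevalonate pathway that serves many isoprenoids, were called higher in both tissues, but in tubules not under every scaling. HMG-CoA synthase (LOC662232) was 0.57 ± 0.18 higher in tubules and 0.94 ± 0.18 higher in fat body on the log2 scale, and HMG-CoA reductase (LOC662673), the rate-limiting enzyme, 0.70 ± 0.17 and 0.87 ± 0.17. In tubules both calls were lost with the authors' size factors (0.07 and 0.20). The call of HMG-CoA synthase was also lost with library totals alone (0.34), RLE factors (0.61), DESeq2 (0.61), and without any 1 control, tubule library 1 or tubule library 3 (0.50 to 0.62).

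Genes described as farnesol dehydrogenases, which in mosquitoes oxidise farnesol on the way to juvenile hormone, differed among themselves. LOC657969, the most abundant, stood at 717 ± 62.1 CPM in controls, 220.02 ± 63.8 in tubules and 2315 ± 146 in fat body (3.40 ± 0.23 in fat body over tubules). LOC657419 followed the same order, at 42.96 ± 3.17, 8.39 ± 4.21 and 134 ± 9.04 CPM. LOC655111 ran the other way, at 6.13 ± 0.509, 68.1 ± 9.99 and 6.41 ± 1.08 CPM (3.47 ± 0.20 in tubules over control). LOC658287 was highest in the whole body, at 34.8 ± 6.03 CPM against 5.37 ± 0.80 and 1.67 ± 1.01.

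Of 10 genes matched as nuclear receptors and transcription factors of the hormone response, 3 were higher and 4 lower in tubules over control (median -0.75), 5 and 3 in fat body over control (median 0.39), and 5 and 3 in fat body over tubules (median 0.93). Over all genes 32.6% were higher and 30.2% lower, 32.2% and 36.9%, and 38.8% and 41.0%, with medians of -0.12, -0.22 and -0.24. In tubules over control 1 was higher with the authors' size factors and 2 without control library 1. The count of higher genes in fat body over control was 3 with library totals alone, under the replicate block, and without control library 2 or 3 or fat body library 2 or 3. The words also matched 2 serine carboxypeptidases and an mRNA decay factor that are no transcription factors. Broad-complex (Br-c), an ecdysone early gene, stood at 38.1 ± 9.39 CPM in controls, 15.98 ± 1.32 in tubules and 58.2 ± 10.98 in fat body. LOC655012, named after the honeybee gene whose Drosophila relative is the adult specifier E93, stood at 78.4 ± 4.96, 52.4 ± 12.1 and 198 ± 48.7 CPM. Both were thus highest in fat body, as E75 was, and for LOC655012 the tubule difference (-0.58 ± 0.23) did not pass.

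HR38 (LOC100142491), which in Drosophila pairs with ultraspiracle, was lower in both tissues, at -3.07 ± 0.38 and -1.21 ± 0.35. The coactivator LOC656017, of the family of the Met partner taiman, was 1.09 ± 0.29 higher in tubules and 1.09 ± 0.29 higher in fat body. A retinoid X receptor gene (LOC661886), of the family of ultraspiracle, passed in no comparison (-0.92 ± 0.61, -1.31 ± 0.62 and -0.39 ± 0.62).

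The 14 genes of peptide hormones and receptors counted 4 higher and 8 lower in tubules over control (median -0.75), where 32.6% and 30.2% of all genes were called (median -0.12). The 4 higher became 0 with the authors' size factors and 2 with library totals alone or without control library 2 or 3 or tubule library 2. They counted 5 and 4 in fat body over control (median -0.47; all genes 32.2% and 36.9%, median -0.22), with 3 higher without control library 2. They counted 7 and 3 in fat body over tubules (median 0.72; all genes 38.8% and 41.0%, median -0.24), with 4 higher without fat body library 2. Many of the matches are insulin-like growth factor binding proteins with no known part in this axis. Insulin-like receptors, through which nutrition acts on reproduction, were matched in LOC661524 and LOC103312742. LOC661524 stood at 87.1 ± 6.32 CPM in controls, 138 ± 30.2 in tubules and 179.7 ± 23.2 in fat body (1.04 ± 0.19 in fat body over control). The rarer LOC103312742 differed, at 4.67, 3.16 and 3.32 CPM in controls, 1.76, 1.51 and 2.14 in tubules and 2.60, 3.86 and 3.38 in fat body. Allatotropin (LOC100216358), a peptide that stimulates the corpora allata in moths, was -1.66 ± 0.34 in tubules. The allatostatin type b gene LOC100142117, named for its action on the same glands in other insects, was -1.54 ± 0.29 in fat body. In tubules LOC100142117 went the other way, with every library above the controls. Its levels were 25.9, 24.6 and 15.4 CPM in tubules against 13.03, 13.6 and 14.1 CPM in controls. Neuroparsin-A (LOC103313182), a neurohormone, was lower in both tissues (-1.65 ± 0.30 and -1.09 ± 0.30).

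Sterol transport genes, which move the precursor of ecdysteroids and other sterols, numbered 12. Against the whole body 8 were higher and 2 lower in fat body (median 0.84), beside 32.2% and 36.9% of all genes (median -0.22), and 6 were higher with library totals alone. Against tubules 9 were higher and 1 lower in fat body (median 0.93), beside 38.8% and 41.0% (median -0.24). In tubules over control 1 was higher and 6 lower (median -0.57), beside 32.6% and 30.2% (median -0.12), and the 1 higher call was lost with library totals alone, the authors' size factors or the replicate block and without any 1 control or tubule library 1 or 3. NPC1 (LOC655972), the membrane partner of NPC2 proteins in mammals, stood at 306.4 ± 18.98 CPM in controls, 366 ± 28.4 in tubules and 613 ± 117 in fat body. Among the genes described as NPC2 homologs, LOC656806 stood at 165 ± 38.4, 81.1 ± 17.7 and 262 ± 35.1 CPM, the same order of groups as LOC664531. The rarer LOC103312703 did not share that order and was lowest in fat body. It stood at 4.99, 2.34 and 5.01 CPM in controls, 4.19, 2.09 and 1.54 in tubules and 1.40, 0.0568 and 1.42 in fat body. A scavenger receptor class B gene (LOC656947) had the largest difference of the 12 between fat body and each other group, at 38.8 ± 3.52, 15.1 ± 4.57 and 246 ± 48.6 CPM (4.02 ± 0.28 in fat body over tubules).

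For JHEH-r5 and E75, the members with the most reads, the genes with the most similar profile were ranked by Pearson's r of log2 CPM over the 9 libraries. For JHEH-r5 they were selenium-binding protein 1 (LOC659271), alanine aminotransferase 2-like (LOC103312991) and L-xylulose reductase (LOC659664), with r from 0.98 to 0.99. For E75 they were ataxin-1 (LOC103313823), a rho guanine nucleotide exchange factor (LOC657517) and disks large 1 (LOC663521), with r from 0.98 to 0.99. They were picked as the highest values over the whole table, from 3 groups of libraries that share depth and tissue, and are given as a description.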

How the data were processed

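The authors deposited 1 table of 5467 genes with, per the file headers, an expected count, a normalized signal, FPKM, TPM and the authors' log2 fold changes for each library or comparison. In each gene at least 1 of the 3 log2 fold changes of the authors' deposited table is 1 or more in size, so all comparisons are among genes selected on these samples. All deposited expected counts were whole numbers and were used as counts. Reads were aligned to Tcas5.2, per the labels' protocols. Trimmomatic 0.32 is named in the submitters' processing notes, and the counting program is not given in the sources used here. The deposited gene length has a median ratio of 0.998 to the RefSeq gene span, introns included, so FPKM was compared only among the JHEH genes. TPM was not compared.

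Library totals were recovered from expected count, FPKM and length. Counts were tested with edgeR 4.0.16 (R 4.3.3), quasi-likelihood F test, TMM factors, filterByExpr (109 genes removed), 9 libraries in 1 fit. SE is the absolute log2 fold change over the square root of F. Levels are TMM-scaled CPM. DESeq2 1.42.0, other scalings, no filter, left-out libraries and a replicate block were alternatives. Shares of the JHEH genes in CPM were added after the data were seen. The members and lists were chosen with earlier results of these data known. The named list genes are the most abundant member and those with the extreme fold changes per list, and a few others were chosen for their known role after their values were seen. RefSeq matched all 10 genes by symbol and 5099 table identifiers in all. No sequences were used here. Between libraries of a group the chi-square per degree of freedom was 21.2 or more, so none was counted as a repeat.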

Additional observations from a re-analysis of the deposited data

How the results depend on the processing

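Across 16 alternatives and 30 member results, 426 of the values kept their direction and their side of the threshold, 27 lost the call, 14 gained it and 13 changed sign. All sign changes were in results that had not passed. In tubules over control, JHEH-r5 (0.12) came to -0.36 with the authors' size factors, -0.12 with library totals alone and -0.16 without tubule replicate 2. Met (0.06) came to -0.44 with the authors' size factors, -0.17 with library totals alone, -0.0029 without control replicate 2 and -0.019 without tubule replicate 3. EcR (0.48) came to -0.024 with the authors' size factors. In fat body over control, JHEH-r2 (0.13) came to -0.12 with library totals alone. In fat body over tubules, JHEH-r3 (-0.13) came to 0.031 with RLE factors, 0.52 with the authors' size factors, 0.048 without tubule replicate 2 and 0.026 with DESeq2. Over the fits that left out 1 library, JHEH-r5 ran from -0.16 to 0.29, Met from -0.019 to 0.17 and JHEH-r3 from -0.23 to 0.048 in those comparisons. The cause of these changes was not tested. The number of members called ran from 4 to 7, 8 to 9 and 5 to 9 in the 3 comparisons.

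Replicate numbers did not pair the libraries, since 2 of 9 same-numbered pairs had correlated deviations over 0.1. With the replicate number as a block, 3151, 3467 and 4129 genes were called against 3366, 3704 and 4275, and 6, 8 and 6 members against 6, 8 and 7. EcR in fat body over tubules kept its size under the block (0.80) at an adjusted p of 0.0629 (edgeR). With 3 libraries per group, differences of low-count genes such as JHAMT (3 to 24 reads in tissues) carry wide errors.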

Other observations

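After the table had been seen, a further list was taken from its pathway annotation: 19 genes annotated to insect hormone biosynthesis that are not among the 10 genes, 15 of them in the pathway lists above. In tubules over control 8 were higher and 9 lower, in fat body over control 5 and 7, and in fat body over tubules 7 and 12, with medians of 0.05, -0.09 and -1.45. Over all genes 32.6% were higher and 30.2% lower, 32.2% and 36.9%, and 38.8% and 41.0% in the same order, with medians of -0.12, -0.22 and -0.24.

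Mt1, a methyltransferase gene next to JHAMT in the RefSeq assembly, was also lower in both tissues. It stood at 56.4, 46.9 and 54.5 CPM in controls, 4.45, 8.37 and 11.4 CPM in tubules and 3.60, 1.87 and 2.84 CPM in fat body. All tissue libraries lay below the controls, with log2 fold changes of -2.70 ± 0.36 (adjusted p = 0.000196, edgeR) and -4.25 ± 0.39 (adjusted p = 7.9e-05, edgeR). Mt2 was lower in both tissues too, at 23.3, 22.8 and 20.7 CPM in controls, 2.95, 5.41 and 6.69 CPM in tubules and 1.53, 0.738 and 1.76 CPM in fat body (-2.15 ± 0.36 and -4.05 ± 0.40). Both were also lower in fat body than in tubules (-1.54 ± 0.36 and -1.90 ± 0.39), where the JHAMT difference of 0.88 ± 0.62 did not pass. The sequences of JHAMT, Mt1 and Mt2 were not compared, and any reads shared among them may be split uncertainly.

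Counting any title of a description and not only the first, 12 genes would have matched the words that chose the 10. The 2 further genes were not used.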
